A study of Mus musculus with 60 samples.

Results

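Gene expression in the liver and the forestomach was compared in the 5 vehicle mice of the series, male Muta Mouse animals aged ~10 weeks. Muta Mouse is a transgenic strain that carries a bacterial lacZ reporter for mutation assays, so every animal in both groups has this transgene. The mice had received olive oil without test compound by gavage on each of 28 days (dose D0), and tissue was taken 72 hours after the last gavage. Samples were chosen by their titles as D0 liver or D0 forestomach, which gave 10 of the 60 arrays in the series, 5 per tissue, with mouse numbers 1 to 5 standing for the same animals in both. Each array held Cy5-labelled RNA from a random section of 1 tissue of 1 mouse against Cy3-labelled universal mouse reference RNA, a mixture from 11 mouse cell lines, without dye swaps. Levels are given as log2 of the Cy5 over the Cy3 signal (the log2 ratio), and every difference is the mean log2 ratio of liver minus that of forestomach. Background was not subtracted, so a probe that is dim in both channels has a log2 ratio near 0 and not a strongly negative one.

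The tissues lay on different slides: the 5 forestomach samples were on 5 slides that also carried lung samples, and the 5 liver samples were on 3 other slides. Slide and tissue therefore cannot be told apart in this comparison. With slide as a random block over all 60 arrays, the counts of calls given below became 6083 higher in liver and 6496 higher in forestomach. In bulk tissue, fewer cells of a type and less RNA per cell cannot be told apart either.

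The liver and the rodent forestomach are built from different epithelia. Liver is mostly hepatocytes, which secrete the carrier, clotting and complement proteins of plasma, make bile acids, dispose of nitrogen through the urea cycle and oxidize foreign compounds with cytochrome P450 enzymes. The forestomach, a nonglandular pouch at the entry of the rodent stomach, is lined by keratinized stratified squamous epithelium over connective tissue and smooth muscle. Its basal cells divide and attach to the basement membrane, and the layers above them switch keratins, join through desmosomes and end as a cornified envelope of cross-linked proteins. The border to the glandular stomach, whose cells secrete acid, mucus and digestive proenzymes, lies next to it.

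Defining markers were checked first. The mean log2 ratio of 8 hepatocyte markers was between 7.71 and 8.43 in the liver samples, where all 8 were well above background, and between 1.08 and 2.08 in the forestomach samples, where 4 to 7 of 8 were. The mean of 9 squamous epithelium markers was between 3.71 and 4.89 in forestomach and between -0.118 and -0.0425 in liver. Both tissues thus carried the markers of their label. In the forestomach of mice 2 and 3, however, the mean of 12 glandular stomach markers was 5.8 and 5.12, with 11 of 12 well above background, against 0.603 to 0.862 and 4 to 6 of 12 in mice 1, 4 and 5 and 0.033 to 0.192 in liver. Mice 2 and 3 also stood apart over all probes: their forestomach samples correlated with those of mice 1, 4 and 5 at r between 0.692 and 0.768, whereas mice 1, 4 and 5 correlated among themselves at 0.904 to 0.944 and the liver samples at 0.959 to 0.98. A liver sample and a forestomach sample correlated at 0.314 to 0.409. The share of probes well above background was 36.3% to 46.2% in liver and, for mice 1 to 5, 37.9%, 25.6%, 21.3%, 36.2% and 50.8% in forestomach. In the forestomach of mouse 5, 10 fat cell markers averaged 5.31, against 1.11 to 2.15 in the other 4 forestomach samples and 1.9 to 2.14 in liver. The part of these other tissues in the results was not tested, and values that rest on mice 2 and 3 are given with and without their forestomach samples.

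**Figure D1:**
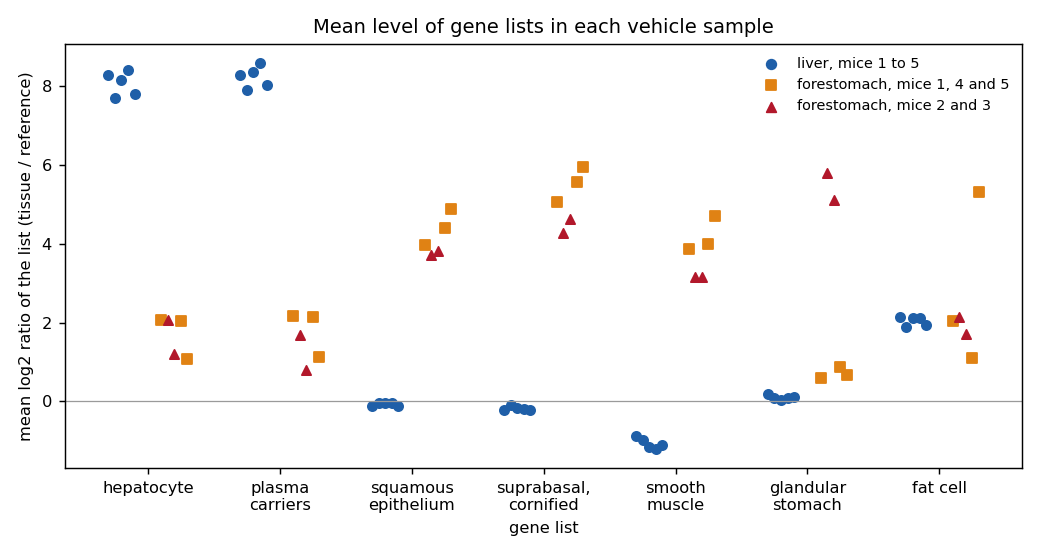
Mean log2 ratio of tissue over reference (vertical axis) of 7 gene lists (horizontal axis) in each of the 10 vehicle samples, 1 point per sample. Forestomach mice 2 and 3 are drawn as triangles. They lie at 5.8 and 5.12 for the glandular stomach list, where the other forestomach samples are at or below 0.862, and forestomach mouse 5 lies apart at 5.31 for the fat cell list.

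The tissues differed at a large share of all probes. Of 25219 probes tested, 12245 (48.6%) were called different, at a Benjamini-Hochberg adjusted p of 0.05 or less and at least 1.5-fold in limma. Of all probes tested, 5943 (23.6%) were called higher in liver and 6302 (25.0%) higher in forestomach. The 5 liver values and the 5 forestomach values did not overlap for 11990 probes (47.5%). The median difference over all probes was 0.0544. Counted by gene, with the brightest probe of each, 3339 of 13207 genes were called higher in liver and 3801 higher in forestomach.

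The 2 directions differed in size. At least 2-fold, fewer probes were higher in liver (3687) than in forestomach (4269), but at least 16-fold differences numbered 681 towards liver and 352 towards forestomach, and at least 64-fold differences 307 and 86. On Cy5 alone the same counts were 3568 and 3733, 653 and 345, and 323 and 137. With processed signals they were 6830 and 4690, 1131 and 1040, and 492 and 314, and with median centring more were higher in liver at each size. The split between directions depends on how arrays are scaled: 48.5% of the called probes were higher in liver here, 59.1% with the processed signals and 72.7% with median centring in place of loess. The last of these moved the median of all probes by 0.238 and left 2198 probes higher in forestomach. Without forestomach mice 2 and 3, 6288 probes (24.9%) were called higher in liver and 6588 (26.1%) higher in forestomach. Of the original calls, 5582 of 5943 and 5897 of 6302 kept their direction, and no called probe changed to the opposite call.

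**Figure D2:**
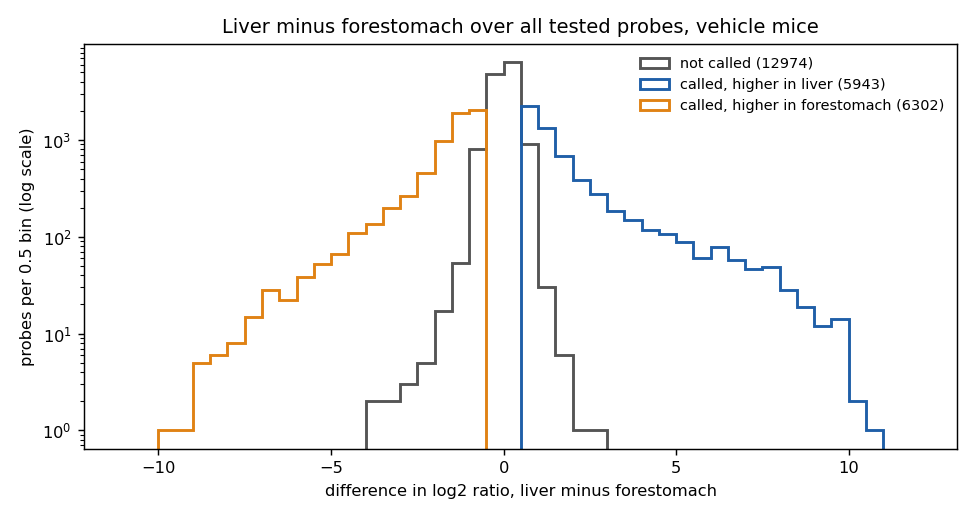
Difference in log2 ratio between vehicle liver and vehicle forestomach (horizontal axis, liver minus forestomach) for the 25219 tested probes, counted in bins 0.5 wide on a logarithmic vertical axis. Lines mark probes called higher in liver (5943), called higher in forestomach (6302) and not called. Counts beyond a difference of 5 are larger on the liver side.

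Among genes whose probe was well above background on all 10 arrays, the 9 with the largest difference towards liver were Fmo5, Rbp4, Sult1a1, Cp, Gsta3, Lifr, C3, Cyp4v3 and Hsd3b7, with differences from 7.39 down to 6.15. They hold enzymes that oxidize or conjugate foreign compounds (Fmo5, Sult1a1, Gsta3), plasma proteins for retinol, copper and complement (Rbp4, Cp, C3), a cytokine receptor subunit (Lifr) and a bile acid enzyme (Hsd3b7). The flavin monooxygenase Fmo5 had log2 ratios of 9.25, 9.25, 8.91, 9.00 and 9.09 in the livers of mice 1 to 5 and of 1.90, 2.09, 1.33, 1.21 and 2.03 in their forestomachs. The lowest liver value was far above the highest forestomach value, and the difference of 7.39 ± 0.19 (SE, as after each ± below) corresponds to 168-fold (adjusted p = 3.22e-11).

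The 10 largest differences towards forestomach on probes measured in all samples belonged to Actg2, Ada, Sbsn, Myl9, Tagln, Ly6g6c, Cdsn, Cyp2s1, Cpe and Cst6, from -9.99 to -7.27. Smooth muscle contributed Actg2, Myl9 and Tagln, and the upper layers of stratified epithelium Sbsn, Cdsn and the protease inhibitor Cst6. Adenosine deaminase (Ada), which turns adenosine into inosine, had log2 ratios of 7.54, 6.09, 7.68, 7.68 and 7.87 in forestomach and -1.59, -1.90, -2.00, -2.06 and -2.01 in liver. The groups were far apart, with forestomach mouse 2 lowest of its group, at a difference of -9.28 ± 0.30 (623-fold, adjusted p = 2.06e-10) and of -9.61 without forestomach mice 2 and 3. Suprabasin (Sbsn), a secreted protein of the suprabasal layers, read 5.11, 5.03, 5.42, 4.95 and 5.83 in forestomach and -3.04, -2.58, -3.05, -3.08 and -2.88 in liver. The groups were far apart, and the difference was -8.20 ± 0.18 (adjusted p = 1.17e-11).

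Many genes were not measured above background on any array of one tissue, 1327 probes in forestomach and 1206 in liver. For these a fold is a lower bound, taken on the normalized Cy5 signal against the higher of the probe's own signal and the dimmest signal well above background on each array of the dim tissue. It compares Cy5 signals across different slides without the reference signal of the same spot. It can exceed the fold of the ratio where the Cy3 reference signal differed too, and that fold is then given beside it. The largest bounds towards liver belonged to Cyp2d40 (at least 681-fold higher), Cyp2c29 (at least 605-fold), the fibrinogen alpha chain Fga (at least 592-fold), the acute phase protein Saa2 (at least 568-fold) and the complement component C8b (at least 551-fold). Towards forestomach they belonged to Krtdap (at least 2380-fold higher), Crct1 (at least 1820-fold), Asprv1 (at least 1740-fold), Krt1 (at least 1330-fold) and Lce1d (at least 1300-fold), genes of keratinizing epithelium. The ratio gave less for each of the 10, from 219-fold (Cyp2d40) to 466-fold (Cyp2c29) towards liver and from 25.1-fold (Lce1d) to 402-fold (Krt1) towards forestomach. Their Cy3 signal differed in the same direction, by 1.38 (Cyp2c29) to 2.53 (Cyp2d40) for the liver genes and by -2.56 (Krt1) to -7.13 (Lce1d) for the forestomach genes. All 10 had an adjusted p of 4.08e-09 or less. Fga, for example, had log2 ratios of 8.64, 8.12, 8.34, 8.81 and 8.42 in liver and of -0.022, 0.18, 0.11, 0.12 and 0.076 in forestomach, where all 5 values were near 0. The cytochrome P450 genes here have close relatives in the genome, and cross-hybridization between relatives was not tested.

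Promoters were read for the 3 leading genes of each kind and direction that RefSeq's table holds (assembly GRCm38.p6, 300 bases from upstream of the start site to 50 bases past it), 12 in all. The table did not list Actg2, Crct1 and Krt1. Of the 12, 3 are shown, because they hold a TATA box on the strand of the gene. Capitals mark TATAAA, the TATA box, in Cyp2c29 (chr19:39286835-39287134, plus strand), Krtdap (chr7:30787655-30787954, plus strand) and Lce1d (chr3:92687161-92687460, minus strand). Sequences run 5′ to 3′ along the gene.
Cyp2c29: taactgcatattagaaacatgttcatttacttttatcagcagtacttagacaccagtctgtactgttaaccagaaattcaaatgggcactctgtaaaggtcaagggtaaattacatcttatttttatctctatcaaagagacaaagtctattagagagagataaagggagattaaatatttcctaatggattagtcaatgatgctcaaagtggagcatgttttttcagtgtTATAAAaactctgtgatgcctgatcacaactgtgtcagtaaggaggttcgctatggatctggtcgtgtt
Krtdap: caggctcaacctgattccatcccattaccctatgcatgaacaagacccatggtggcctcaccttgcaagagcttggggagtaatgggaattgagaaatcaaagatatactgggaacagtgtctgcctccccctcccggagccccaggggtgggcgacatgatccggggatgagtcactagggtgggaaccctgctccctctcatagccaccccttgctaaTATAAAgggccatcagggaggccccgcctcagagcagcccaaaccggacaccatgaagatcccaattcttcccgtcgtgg
Lce1d: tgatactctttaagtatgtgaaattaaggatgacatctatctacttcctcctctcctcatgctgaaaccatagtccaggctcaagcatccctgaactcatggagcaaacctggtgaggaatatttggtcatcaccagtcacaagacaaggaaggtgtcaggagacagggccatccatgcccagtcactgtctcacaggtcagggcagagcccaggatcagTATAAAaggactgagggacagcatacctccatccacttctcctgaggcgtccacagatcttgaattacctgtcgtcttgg

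The TATA box began at position -30 from the start site in both Krtdap and Lce1d and at -19 in Cyp2c29. TATAAA also matched the opposite strand in Fmo5 (at -195) and Cyp2d40 (at -91). Searched on both strands, TATAAA occurred in 10.2% of the 2644 promoters of genes called higher in liver, in 9.89% of the 2932 of genes called higher in forestomach, in 8.66% of those of all 10477 tested genes with a promoter and in 13.6% of all 32851 promoters of the table. CAAAGTCCA, a site for the liver receptor HNF4A, was in none of the 12 promoters and in 0.681%, 0.443%, 0.449% and 0.475% of the same sets. Matches of letters are descriptions and do not show that a factor binds.

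Genes of the liver were described by role. A gene could pass the signal filter through the tissue where it was high, so beside each count stands the number of genes that passed in both tissues. For reading the counts, 23.6% of all tested probes were called higher in liver and 25.0% higher in forestomach, and the median over all was 0.0544. For some genes that also differed in the Cy3 reference, the differences in Cy5 alone and in Cy3 are given beside the ratio. Genes named below beside those that the naming rule picked were chosen after their values were seen.

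Plasma proteins were far higher in liver. Of 17 carrier proteins, 17 were called higher in liver (13 passed in both tissues), with a median difference of 6.52 and a range from 1.18 for fetuin B (Fetub) to 9.79 for beta-2-glycoprotein (Apoh). Retinol-binding protein (Rbp4), which carries vitamin A from the liver, had log2 ratios of 8.58, 7.88, 8.65, 8.80 and 8.21 in liver and 1.35, 1.30, 0.18, 1.54 and 1.24 in forestomach. Its forestomach value was lowest in mouse 3 and the groups were 158-fold apart (adjusted p = 5.32e-10). Albumin (Alb), the main plasma protein, read 7.56, 6.91, 7.37, 7.90 and 6.94 in liver and 3.50, 1.40, 0.71, 3.08 and 0.63 in forestomach. Its forestomach values spread over nearly 3 units, with mice 1 and 4 highest, and its difference was 5.47 ± 0.54 (adjusted p = 4.03e-06). Its log2 Cy5 signal alone averaged 18.6 in liver and 7.91 in forestomach, and its Cy3 reference signal differed by 5.75 on the log2 scale.

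Of 15 lipoprotein genes, 15 were called higher in liver (8 passed in both tissues), with a median of 4.3. Apob, the structural protein of very low density lipoprotein, differed by 8.27, and Apoc3, an inhibitor of lipoprotein lipase, by 6.69 (10.60 in Cy5 alone and 4.70 in Cy3). Mttp, which loads lipid onto Apob, was not well above background in any forestomach sample and was at least 31.8-fold higher in liver.

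Of 32 coagulation and complement genes, 31 were called higher in liver (9 passed in both tissues), with a median of 7.12. Fibrinogen gamma (Fgg) differed by 9.62, antithrombin (Serpinc1) by 9.59, prothrombin (F2) by 7.55 and the central complement protein C3 by 6.33 (less on Cy5 alone, 4.89, with -1.52 in Cy3). In Cy3, 21 of the 32 were called, 20 of them higher on the liver arrays, among them Fgg (2.48), Serpinc1 (1.48) and F2 (2.33). On Cy5 alone these differed by 11.3, 10.3 and 9.3. Clotting factor F10 was not called on its brightest probe (-0.21, adjusted p = 0.645), whose 5 liver values lay between 0.33 and 0.54. With processed signals it was called higher in liver at 1.42 and with the deposited ratios at 0.766. A second F10 probe had liver values between 6.56 and 7.12 and a difference of 6.53 (adjusted p = 4.91e-09).

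Of 14 hormones and growth factors that liver secretes or answers to, 11 were called higher in liver (5 passed in both tissues), with a median of 4.36. Insulin-like growth factor 1 (Igf1) differed by 6.58 and the growth hormone receptor Ghr by 4.21. The iron hormone hepcidin (Hamp), not above background in forestomach, was at least 216-fold higher in liver on Cy5 and 23-fold on the ratio, with a Cy3 difference of 4.28. Angptl4, Igfbp2 and the activin antagonist Fst were not called, at 1.34, 0.66 and -0.02. With mouse as a block, which pairs the tissues of an animal, Angptl4 and Igfbp2 were called higher in liver (adjusted p = 0.00097 and 0.0273), and Angptl4 also without liver mouse 4 or forestomach mouse 1 or 5 (1.56 to 1.67). Both were also called with all 60 arrays in the fit.

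Of 17 genes of bile acid synthesis and transport, 16 were called higher in liver (7 passed in both tissues), with a median of 5.39. The hepatic uptake carrier Slco1b2 differed by 9.81 and the bile salt export pump Abcb11 by 4.71 (7.61 in Cy5 alone and 3.54 in Cy3), and the bile acid receptor Nr1h4 was at least 55.4-fold higher in liver. Cyp7a1, the rate-limiting enzyme of bile acid synthesis, had log2 ratios of 6.83, 4.63, 5.50, 4.79 and 5.56 in liver and of -0.026, 0.013, 0.081, 0.17 and 0.13 in forestomach, where no sample was above background. Liver values differed among mice by over 2 units with mouse 1 highest, and Cyp7a1 was at least 24.2-fold higher in liver (adjusted p = 9.12e-08). Slc10a1, the sodium-dependent bile acid carrier, was not called on its brightest probe (-0.31, adjusted p = 0.49) but was called higher in liver at 1.54 with processed signals and 0.725 with the deposited ratios, and its second probe, not above background in any forestomach sample, was at least 80.4-fold higher in liver (adjusted p = 3.36e-10).

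Of 19 genes of the urea cycle and amino acid breakdown, 19 were called higher in liver (8 passed in both tissues), with a median of 6.74. The mitochondrial ornithine carrier Slc25a15 was at least 8-fold higher in liver. Bhmt, a methyltransferase that turns homocysteine into methionine, had log2 ratios from 10.48 to 10.75 in the 5 livers and of 3.99, 0.74, 0.11, 2.35 and 0.33 in forestomach. It was above background in 2 forestomach samples and highest there in mice 1 and 4, all liver values were above all forestomach values, and the difference was 9.15 ± 0.63 (adjusted p = 1.94e-07).

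Enzymes that exist as a liver form and a form of other tissues split by form. Of 12 liver isozymes, 11 were called higher in liver and 1 in forestomach (6 passed in both tissues), with a median of 5.97, and of 11 tested extrahepatic isozymes, 8 were called higher in forestomach and 0 in liver (9 passed in both tissues), with a median of -2.01. The extrahepatic hexokinase Hk2 differed by -1.77. Pyruvate kinase of liver (Pklr) was at least 6.25-fold higher in liver and its other form Pkm differed by -2.60. The glucose transporter Slc2a2 was at least 96.5-fold higher in liver and Slc2a1 differed by -2.22. The glycogen phosphorylases Pygl and Pygb differed by 5.46 and -2.44. Fbp1 differed by 8.68, and Fbp2 was at least 4.54-fold higher in forestomach. Gls2, a liver form, differed by 5.93 and Aldoa, an extrahepatic form, by -2.01. In 3 pairs the extrahepatic form was not called. Gys2 differed by 7.26 with Gys1 at -0.36, and Cpt1a by 1.44 with Cpt1b at 0.22. Mat1a was at least 421-fold higher in liver on Cy5 and 367-fold on the ratio, with Mat2a at -0.46. With processed signals Cpt1b was called higher in liver (1.19) and Mat2a higher in forestomach (-0.81; -0.734 with the deposited ratios). The phosphofructokinase Pfkl, listed as the liver form, was higher in forestomach (-1.27; -0.254 and not called with median centring), as was Pfkp (-2.31). With median centring, 3 of the extrahepatic forms stayed called higher in forestomach, and Aldoa, Hk2, Pkm and Slc2a1 did not.

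Of 12 transcription factors of liver, 12 were called higher in liver (6 passed in both tissues), with a median of 4.16. Hnf4a differed by 4.28 (6.78 in Cy5 alone and 2.98 in Cy3), Foxa2 by 5.17 and Cebpa by 2.27. Foxa1 was close to the threshold (1.28, adjusted p = 0.0428) and lost its call with normexp, processed signals, Cy5 alone or no filter, and without liver mouse 2, 3 or 4 or forestomach mouse 1, 4 or 5 (differences of 0.938 to 1.3, adjusted p = 0.0532 to 0.178). The orphan receptor Nr5a2 led with 6.25, though a second probe gave 1.09. Onecut1 (HNF6) varied widely among livers, with 4.33, 3.24, 4.16, 2.08 and 0.64 in mice 1 to 5, against -0.0025, -0.06, 0.16, -0.14 and 0.19 in forestomach, where it was not above background. Liver mouse 5 was lowest, the groups did not overlap, and Onecut1 was at least 5.08-fold higher in liver (adjusted p = 0.00133).

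**Figure D3:**
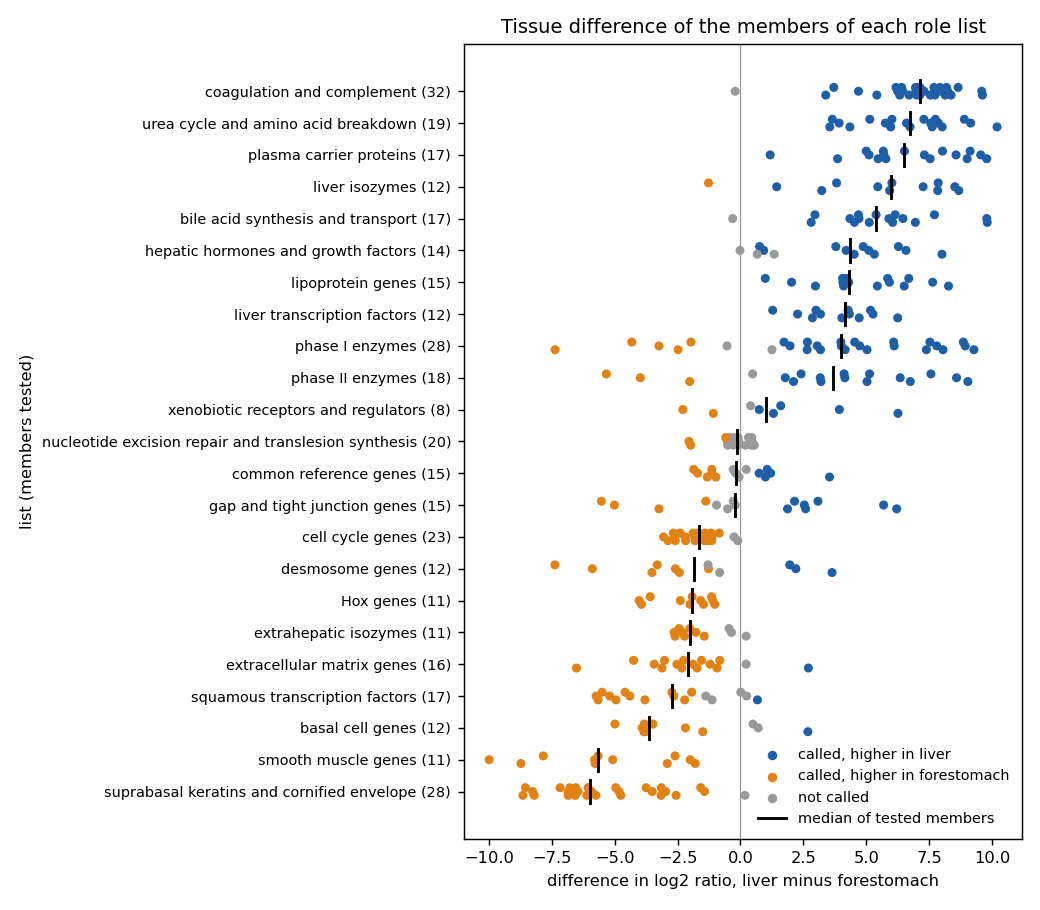
Difference in log2 ratio (horizontal axis, liver minus forestomach) of each tested member of 23 gene lists (rows, with the number tested), 1 point per gene. Colour gives the call and a black bar the median of the tested members. Lists of liver function have medians between 4.16 and 7.12, and those of smooth muscle and of the cornified layers -5.66 and -5.99.

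Enzymes that process foreign compounds were divided between the tissues. Of 28 tested phase I genes, which oxidize or hydrolyse such compounds, 21 were called higher in liver and 5 higher in forestomach (18 passed in both tissues), with a median of 4. Of 18 phase II genes, which conjugate them, 14 were called higher in liver and 3 higher in forestomach (12 passed in both tissues), with a median of 3.66. The forestomach genes were Cyp2s1, Nqo1, Aldh3a1, Cyp1b1 and Adh7 in phase I and Sult2b1, Gsto1 and Gsta4 in phase II, Gsta4 not with median centring (-1.06).

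On the liver side, the steroid and drug hydroxylase Cyp3a25 and the glucuronosyltransferase Ugt2b5, neither above background in forestomach, were at least 332- and 419-fold higher, and the ethanol-inducible Cyp2e1 differed by 4.16 (9.06 in Cy5 alone and 5.17 in Cy3). The glutathione transferase Gsta3 had log2 ratios of 8.99, 8.13, 8.65, 8.85 and 8.52 in liver and 2.37, 3.09, 1.48, 2.25 and 2.19 in forestomach. It was well above background in both tissues without overlap, and differed by 6.35 ± 0.26 (adjusted p = 1.99e-09), or by 5.24 on Cy5 alone, with a Cy3 difference of -1.02. Microsomal epoxide hydrolase (Ephx1), which opens epoxides of aromatic hydrocarbons, read 2.15, 1.78, 2.21, 2.43 and 1.86 in liver and 0.56, 0.075, 0.057, 0.27 and 0.79 in forestomach. All 5 liver values were higher, by 1.73 ± 0.18 on average (3.33-fold, adjusted p = 6.7e-06). The electron donor of microsomal P450 enzymes, Por, was not called (-0.53, adjusted p = 0.0726), but was called higher in forestomach without liver mouse 2 (-0.678) or forestomach mouse 4 (-0.679), with the deposited ratios (-0.756) and on Cy5 alone (-0.786).

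On the forestomach side, Cyp2s1, a P450 of epithelial surfaces, had log2 ratios of 4.87, 4.41, 4.38, 4.53 and 5.73 in forestomach and -2.61, -2.27, -2.95, -2.86 and -2.23 in liver. The groups were 165-fold apart (adjusted p = 4.95e-10). The quinone reductase Nqo1 read 2.45, 3.70, 2.64, 2.53 and 2.09 in forestomach and -1.36, -1.44, -1.86, -1.99 and -1.53 in liver. Forestomach mouse 2 was highest, and the difference was -4.32 ± 0.26, or -3.99 without forestomach mice 2 and 3 (adjusted p = 7.3e-08 and 4.83e-09). The cholesterol sulfotransferase Sult2b1 read 4.38, 3.81, 3.35, 4.63 and 4.84 in forestomach and -1.20, -0.71, -1.22, -1.42 and -1.10 in liver, where it was above background in 1 sample. Its difference was -5.33 ± 0.27 (adjusted p = 1.08e-08).

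The CYP1 enzymes, which oxidize polycyclic aromatic hydrocarbons such as the compound given to the dosed mice, showed 3 patterns without exposure. Cyp1a1 was not well above background in any of the 10 samples and was not tested. Cyp1a2, a constitutive enzyme of hepatocytes, had log2 ratios of 6.30, 6.00, 6.34, 6.61 and 5.85 in liver and 0.24, -0.054, 0.29, 0.15 and -0.0026 in forestomach, where it was not above background. It was at least 274-fold higher in liver on Cy5 and 68.3-fold on the ratio (adjusted p = 3.19e-11), with a Cy3 difference of 3.24. Cyp1b1, found mainly outside the liver, read -0.38, -1.12, -0.46, -0.56 and 0.21 in forestomach and -3.03, -2.55, -3.17, -3.16 and -2.82 in liver. Cyp1b1 was above background in 3 forestomach samples and 1 liver sample. Forestomach mouse 2 was lowest of its group but above every liver value, at a difference of -2.48 ± 0.22 (5.6-fold, adjusted p = 1.9e-06).

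Of 8 tested receptors and regulators of these enzymes, 5 were called higher in liver and 2 higher in forestomach (5 passed in both tissues), with a median of 1.03. The aryl hydrocarbon receptor Ahr, which binds polycyclic aromatic hydrocarbons and induces CYP1 genes, read 0.81, 0.91, 0.67, 1.18 and 1.40 in liver and -0.43, 0.023, -0.31, -0.56 and -0.31 in forestomach. It was higher in liver by 1.31 ± 0.16 (2.49-fold, adjusted p = 3e-05), while its partner Arnt was not called (0.40) and its repressor Ahrr was not tested. Tiparp, an Ahr target that represses it, was higher in forestomach (-1.08), as was Nfe2l2 (NRF2), the regulator of Nqo1 (-2.29), whose inhibitor Keap1 was higher in liver (0.74; not called with the deposited ratios at 0.484). With median centring neither Tiparp (-0.339) nor Nfe2l2 (-1.29) was called. The xenobiotic receptor Nr1i3 (CAR) had log2 ratios of 6.47, 5.87, 6.48, 6.03 and 6.00 in liver and -0.042, -0.18, -0.12, -0.014 and -0.091 in forestomach. It was not above background in forestomach and at least 66.8-fold higher in liver (adjusted p = 1.45e-11).

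Genes that repair or bypass the bulky adducts of such compounds differed little in comparison. Of 20 tested genes of nucleotide excision repair and translesion synthesis, 17 were not called, 3 were called higher in forestomach and 0 higher in liver (17 passed in both tissues). Their median of -0.152 turned to 0.0552 with processed signals, where 5 were called higher in liver and 2 higher in forestomach, and to 0.319 with median centring. The endonuclease subunit Ercc1 had log2 ratios of 0.13, -0.55, -0.081, -0.20 and -0.089 in forestomach and -2.16, -1.81, -2.54, -2.37 and -2.13 in liver. Forestomach mouse 2 was lowest of its group, without overlap, and the difference was -2.04 ± 0.17 (adjusted p = 8.3e-07). Called beside it were Lig1 (-1.98; not with median centring, -0.95), a ligase also used in replication, and the damage sensor Ddb2 (-0.59). Ddb2 was not called without forestomach mice 2 and 3 (-0.36), without liver mouse 4 or forestomach mouse 1, 2 or 3 alone, or with processed signals (-0.172), deposited ratios, median centring or Cy5 alone. The helicase Ercc2 was not called (0.55), but was called higher in liver without forestomach mice 2 and 3 (0.82, adjusted p = 0.000572), without liver mouse 5 or forestomach mouse 2 or 3 alone (0.594 to 0.66), and with processed signals, median centring or Cy5 alone (0.754 to 1.19). The damage-binding subunit Ddb1 lay nearest 0 (-0.071).

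**Figure D4:**
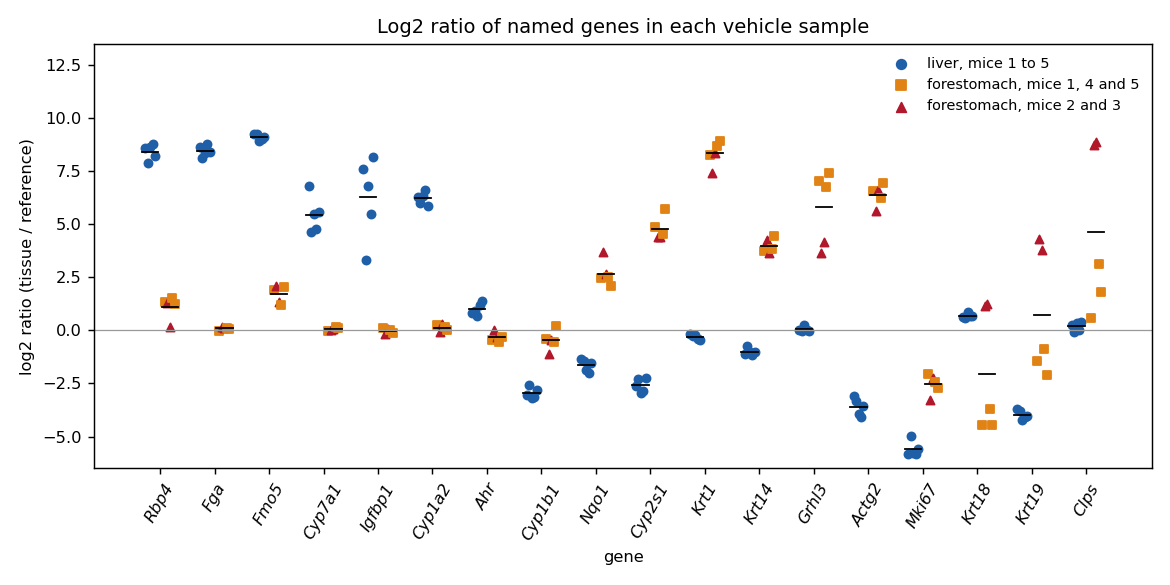
Log2 ratio of tissue over reference (vertical axis) of 18 named genes (horizontal axis) in each vehicle sample, 1 point per sample, with the mean of each tissue as a bar. Forestomach mice 2 and 3 are triangles. Groups are apart for Rbp4, Fga, Fmo5, Cyp1a2, Cyp2s1, Krt1 and Actg2, whereas Krt18, Krt19 and Clps are split within forestomach.

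Smooth muscle genes were all higher in forestomach where they were measured. Of 11 tested, 11 were called higher in forestomach (6 passed in both tissues), with a median of -5.66. Intestinal smooth muscle actin Actg2 had log2 ratios of 6.56, 5.64, 6.59, 6.25 and 6.94 in forestomach and -3.09, -3.32, -3.93, -4.07 and -3.56 in liver. The groups were 1020-fold apart (adjusted p = 3.52e-11), the largest difference in the ratio towards forestomach among genes above background on all 10 arrays. Cnn1, a calponin that binds actin, differed by -8.73, Tagln by -7.84, the intermediate filament Des by -5.80, and the myosin heavy chain Myh11 by -5.08. The muscle coactivator Myocd was at least 2.28-fold higher in forestomach.

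The keratins and envelope proteins of the upper layers were nearly all higher in forestomach. Of 28 tested, 27 were called higher in forestomach (11 passed in both tissues), with a median of -5.99. Keratin 1 (Krt1), a filament protein of the suprabasal layers of keratinized epithelium, had log2 ratios of 8.29, 7.43, 8.38, 8.71 and 8.95 in forestomach and -0.19, -0.28, -0.19, -0.38 and -0.45 in liver. It was not above background in any liver and at least 1330-fold higher in forestomach on Cy5 and 402-fold on the ratio (adjusted p = 6.09e-11). Krtdap, a keratinocyte differentiation protein, read 6.33, 6.72, 6.80, 6.51 and 7.28 in forestomach and -0.091, -0.052, -0.27, -0.13 and 0.28 in liver. All forestomach values were above all liver values. Its bound of 2380-fold, on Cy5, exceeds the 110-fold of the ratio, and its Cy3 signal differed by -5.66 (log2). Krt10, which pairs with Krt1 in filaments, differed by -7.17 and loricrin (Lor), the main envelope protein, by -6.57 (-11.30 in Cy5 alone and -5.55 in Cy3). The mucosal keratins Krt4 and Krt13, not above background in liver, were at least 92.7- and 418-fold higher in forestomach on Cy5 and 66.6- and 115-fold on the ratio. The envelope precursor involucrin (Ivl) and the wound keratin Krt6a were at least 2.02- and 2.6-fold higher, Krt6a not called with median centring. The exception was the transglutaminase Tgm3, not called on its brightest probe (0.17) but at -2.77 on its second (adjusted p = 0.00638). Median centring left 23 of 28 called.

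Of 12 basal cell genes, 9 were called higher in forestomach and 1 higher in liver (9 passed in both tissues), with a median of -3.63. Krt14, the basal keratin, had log2 ratios of 3.75, 4.24, 3.63, 3.85 and 4.46 in forestomach and -1.11, -0.72, -1.0, -1.16 and -1.03 in liver. The groups were 31.8-fold apart (adjusted p = 3.74e-10), with a difference of -8.20 in Cy5 alone and -3.57 in Cy3. Its partner Krt5 differed by -3.48 (-1.05 and not called with median centring), but by -9.86 in Cy5 alone and -7.26 in Cy3. The hemidesmosome integrins Itga6 and Itgb4 differed by -3.84 and -3.78, and the hemidesmosome collagen Col17a1 was at least 8.59-fold higher. The growth factor receptor Egfr was the gene higher in liver (2.67), and Dst and Lama3 were not called (0.50 and 0.71). Both were called higher in liver with processed signals (1.09 and 0.835), Dst also on Cy5 alone (0.70), and Lama3 also without forestomach mouse 5 (0.997) or with slide as a random block over all 60 arrays (0.717).

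Cell junction genes did not all go one way. Of 12 desmosome genes, 7 were called higher in forestomach and 3 higher in liver (7 passed in both tissues), with a median of -1.86. The isoforms Dsg2, Pkp2 and Dsc2, found in simple epithelia, were higher in liver (3.64, 2.20 and 1.96), and those of stratified epithelia, Dsg3, Pkp1 and Dsc3, higher in forestomach (at least 4.85-fold, -5.89 and at least 4.03-fold). Corneodesmosin (Cdsn), an adhesion protein of cornified cells, read 4.33, 3.14, 3.59, 3.78 and 4.93 in forestomach and -3.56, -2.96, -3.54, -3.70 and -3.39 in liver. Forestomach mouse 2 was lowest and mouse 5 highest, and the difference was -7.38 ± 0.30 (adjusted p = 1.44e-09). Without forestomach mice 2 and 3, Jup and Dsg1a were also called, which made 9 higher in forestomach. Both were also called with all mice kept, with processed signals (-2.21 and -3.95) or all 60 arrays in the fit (-0.827 and -1.29), and Dsg1a without mouse 2 or 3 alone. With median centring 4 of the list were called higher in forestomach.

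Of 15 tested gap and tight junction genes, 7 were called higher in liver and 4 higher in forestomach (7 passed in both tissues). Connexins divided by tissue, with the liver connexins Gjb1 and Gjb2 higher in liver (2.54, or 5.03 in Cy5 alone and 2.63 in Cy3, and 1.87) and Gjb6 and Gja1 higher in forestomach (at least 16.9- and 6.6-fold). Claudins Cldn3 and Cldn2 were higher in liver (6.21 and at least 28.6-fold), and occludin (Ocln) was not called (-0.21). The list's median of -0.213 became 0.525 without forestomach mice 2 and 3, with 6 genes called higher in forestomach, and 0.305 with median centring.

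Of 17 tested transcription factors of squamous epithelium, 12 were called higher in forestomach and 1 higher in liver (7 passed in both tissues), with a median of -2.73. Without forestomach mice 2 and 3 the count was 13 and the median -4.15. Grhl3, which drives terminal differentiation of surface epithelium, had log2 ratios of 7.06, 3.63, 4.17, 6.76 and 7.40 in forestomach and 0.028, -0.025, 0.26, 0.038 and -0.01 in liver. Mice 2 and 3 had about 3 units less than the other forestomach samples, and the difference of -5.74 ± 0.67 became -7.01 without them (adjusted p = 1.76e-05 and 3.43e-11). Liver values lay near the level of background, so the size of these differences depends on that level. Klf4 and Klf5, factors of suprabasal and basal cells, differed by -5.66 and -4.40. Pitx1 and Sox2, not above background in liver, were at least 257- and 2.69-fold higher on Cy5, Pitx1 by 45.3-fold on the ratio. Hopx was not called (0.012), though it was called higher in forestomach on Cy5 alone (-2.22, adjusted p = 7.83e-05).

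Trp63 (p63), the master regulator of stratified epithelium, gave opposite calls on 2 probes. The brighter probe, for transcript NM_001127261, read 0.52, 0.68, 0.84, 0.61 and 0.49 in liver and -0.26, 0.18, 0.23, -0.46 and 0.093 in forestomach. It was called higher in liver by 0.67 ± 0.15 (adjusted p = 0.00265), but lay at -0.34 and was not called on Cy5 alone, and fell short of 1.5-fold without forestomach mouse 4 (0.569). The other, for transcript NM_011641, read -0.60, -0.12, -0.76, -0.64 and -0.20 in liver, where it was not above background, and 6.37, 3.57, 3.61, 6.20 and 7.08 in forestomach. It was called higher in forestomach, by at least 32.7-fold (adjusted p = 9.98e-06), and was also called without mice 2 and 3 (adjusted p = 2.66e-10), whose values were the lowest of the forestomach group. Which of the probes reports the gene's level was not tested.

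Hox genes, which mark position along the body axis, were measured mostly in forestomach. Of 20 with a probe, 11 passed the filter (5 in both tissues), and 11 of these were called higher in forestomach, with a median of -1.92, or -1.06 over all 20. Hoxc4, in the cluster that also holds Hoxc5 and Hoxc6 (at least 9.64- and 16.6-fold higher, Hoxc6 by 15.3-fold on the ratio), had log2 ratios of 1.69, 0.21, 0.58, 1.14 and 2.42 in forestomach and -2.99, -2.03, -3.12, -3.27 and -2.71 in liver. It was not above background in any liver, forestomach mouse 2 was lowest of its group, and it was at least 13.6-fold higher in forestomach (adjusted p = 3.48e-06). Of the 11, 8 remained called with median centring.

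Cell cycle genes were higher in forestomach on the main scale. Of 23 tested, 21 were called higher in forestomach and 0 higher in liver (20 passed in both tissues), with a median of -1.66. Mki67, a marker of dividing cells, had log2 ratios of -2.05, -3.26, -2.23, -2.45 and -2.73 in forestomach and -5.84, -4.96, -5.78, -5.82 and -5.61 in liver. All values were negative, meaning a lower level than in the reference mixture of cell lines, and forestomach was higher by 8.34-fold (adjusted p = 6.91e-07). The survivin gene Birc5 differed by -2.88, the nucleotide reductase subunit Rrm2 by -2.67, the replication clamp Pcna by -1.38 and the helicase subunit Mcm2 by -1.89, while the mitotic kinase Plk1 was not called (-0.11). With median centring 8 of the 23 were called, not Birc5, Rrm2 or Pcna, and the median was -0.836.

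Of 16 extracellular matrix genes, 14 were called higher in forestomach and 1 higher in liver (14 passed in both tissues), with a median of -2.07. Matrix Gla protein (Mgp), an inhibitor of calcification, read 4.16, 3.99, 3.08, 4.38 and 3.61 in forestomach and -2.18, -2.53, -2.90, -2.98 and -2.77 in liver. The groups were 91.5-fold apart (adjusted p = 8.09e-10). The fibrillar collagens Col3a1, Col1a2 and Col1a1 differed by -4.25, -3.12 and -3.02, and periostin (Postn) by -3.43. Fibronectin (Fn1), also a plasma protein made by hepatocytes, was the gene higher in liver (2.70). With median centring 6 stayed called higher in forestomach, Col1a1 not among them.

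Markers of resident cells followed their tissue in part. Of 6 tested Kupffer cell markers (the macrophages of liver), 5 were called higher in liver (3 passed in both tissues), among them Cd5l (at least 46.3-fold) and the lectin Clec4f (at least 46.4-fold), or 4 without forestomach mice 2 and 3. Of 7 markers of liver sinusoidal endothelium, 6 were called higher in liver (4 passed in both tissues), and 1 was called higher in forestomach without forestomach mice 2 and 3. Those higher in liver included Clec4g (at least 91.5-fold) and Stab2 (5.43). Of 6 hepatic stellate cell markers, 3 were higher in liver (Lrat, Hgf and Reln) and 2 in forestomach, or 3 without forestomach mice 2 and 3, including Des, which smooth muscle shares (3 passed in both tissues). Of 6 mesothelium markers, 6 were called higher in forestomach (3 passed in both tissues), and of 5 tested markers of enteric neurons and glia, 4 were (2 passed in both tissues), with S100b at least 4.25-fold higher. Of 7 tested markers of Langerhans and other dendritic cells, 4 were called higher in forestomach (4 passed in both tissues), and the Langerhans cell lectin Cd207 was higher in liver (2.74). All 4 tested red cell markers, which passed in both tissues, were called higher in liver, or 3 without forestomach mice 2 and 3, with Alas2, the first enzyme of heme synthesis in red cells, at 3.71 and the globin Hbb-bt at 1.71 (1.06 and not called on Cy5 alone). Of 3 tested B cell markers 0 were called (2 passed in both tissues), and of 3 T cell markers, all 3 passing in both, 1 was called each way, or 2 towards liver without forestomach mice 2 and 3. Of 9 pancreatic acinar markers with a probe, 6 were not tested, and among the 3 tested Ctrb1 was higher in liver (1.41) and Cel higher in forestomach (-0.74; not with median centring), and 2 passed in both tissues. Of 7 tested fat cell markers, 3 were called higher in forestomach, among them Cfd (-4.92) and Fabp4 (-3.74), and 2 higher in liver, Pck1 and Car3, both of which hepatocytes express (3 passed in both tissues). The fat cell list mean was 5.31 in forestomach mouse 5 but 1.11 to 2.15 in the other forestomach samples, so that sample stands apart in these values. Of 4 tested skeletal muscle markers, 3 were called higher in forestomach and 1 in liver (2 passed in both tissues). Of 5 tested bile duct markers (2 passed in both), 3 were called higher in forestomach (Krt7, Krt19 and Epcam). Without forestomach mice 2 and 3, 2 bile duct markers were also called higher in liver. Lists shared members: Epcam also counts among the Langerhans and dendritic markers and Krt19 among the mesothelium markers, so these counts are not independent. Of 6 tested glandular stomach markers, 4 were called higher in forestomach, but 1 passed in both tissues and 5 in forestomach alone. Their median was -2.53, or -0.736 without forestomach mice 2 and 3, where 4 were also called. Median centring left 1 call each way among the Langerhans and dendritic markers, 2 calls towards forestomach among the enteric, 2 among the glandular stomach and 2 among the fat cell markers, 4 towards liver among the Kupffer cell and 3 among the red cell markers, and 2 towards liver with 0 towards forestomach among the T cell markers. On Cy5 alone 2 red cell, 4 Kupffer cell and 1 glandular stomach marker were called.

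Genes often used as references were themselves not level. Of 15, 5 were called higher in liver and 6 higher in forestomach. With processed signals these counts were 7 and 4, and with median centring 6 and 0. B2m, the light chain of class I molecules, differed by 3.54, beta-actin (Actb) by -1.32 (not called with processed signals, deposited ratios or median centring) and the ribosomal protein gene Rplp0 by -1.86 (not called with median centring), while Gapdh (0.23), Tbp (-0.19) and Eef2 (-0.055) were not called. Gapdh was called higher in liver with processed signals (1.66), deposited ratios (1.03) and median centring (1.51) and without forestomach mice 2 and 3 (0.78). Their median of -0.192 changed sign with the scaling, to 0.465 with processed signals, 0.294 with the deposited ratios and 0.97 with median centring.

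Calls of several transcripts changed on leaving out the forestomach samples of mice 2 and 3. Keratin 18 (Krt18), of simple epithelia, had log2 ratios of 0.65, 0.59, 0.85, 0.70 and 0.66 in liver and -4.44, 1.17, 1.23, -3.70 and -4.48 in forestomach. Mice 2 and 3 exceeded every liver value and mice 1, 4 and 5 lay far below. It was not called (2.73 ± 1.12, adjusted p = 0.0525) but was called higher in liver without those samples (4.90, adjusted p = 9.04e-10), and also without either of them alone (3.54 and 3.55) or with mouse as a block (adjusted p = 0.0424). With all mice kept it was also called with processed signals (3.51), deposited ratios (3.09), median centring (4.05), Cy5 alone (2.72), a variance trend, residual shuffling, only probes above background on all 10 arrays, or all 60 arrays in the fit (adjusted p = 0.00153 to 0.0455). Keratin 19 (Krt19), of simple and glandular epithelia, read -1.43, 4.33, 3.77, -0.86 and -2.12 in forestomach and -3.71, -3.81, -4.23, -4.06 and -4.03 in liver. It was called higher in forestomach with mice 2 and 3 (-4.70, adjusted p = 0.00416) and without them (-2.50, adjusted p = 4.06e-06). Without them, 368 genes were newly called higher in liver, led by Krt18, Krt8, Sult1c2, Oasl1 and Pllp, and 376 newly higher in forestomach, led by Rspo1, Itih5, Sult1e1, Zfp750 and Wfdc12. With all mice kept, Itih5 was called under 7 and Rspo1 under 7 of the other settings, among them normexp and processed signals, Wfdc12 with processed signals, Zfp750 with processed signals or all 60 arrays, Krt8, Oasl1 and Pllp with median centring, and Oasl1 with mouse as a block or all 60 arrays. Without mice 2 and 3, 241 lost a forestomach call, led by Cyp2c65, Atf3, Gipc2, Syt13 and Micall2. Atf3 still differed by -1.07 (adjusted p = 0.0508), and Cyp2c65 by -0.57. The calls of Cyp2c65 and Gipc2 were also lost on leaving out any single liver sample, and that of Syt13 without liver mouse 1, 3 or 4. Those of Cyp2c65, Gipc2, Syt13 and Micall2 were lost with median centring.

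Mice differed more in forestomach than in liver. The median SD over the 5 mice was 0.193 in liver (19441 probes above background on all 5 arrays) and 0.338 in forestomach (10990 probes). Without forestomach mice 2 and 3 it was 0.235, over 3 mice on the same probes. Those samples were left out because they stood apart, so a lower value follows from the choice. On the same 10302 probes, the SD was higher in forestomach for 82.3%. In liver, the most variable genes were Igfbp1, Cish, Cyp2c23, Depp1 and Onecut1. Igfbp1, an insulin-like growth factor binding protein that rises with fasting, had log2 ratios of 7.62, 3.31, 6.79, 5.47 and 8.16 in liver, with mouse 2 lowest and mouse 5 highest, and 0.11, -0.16, 0.081, 0.024 and -0.12 in forestomach. Cish, a feedback inhibitor of growth hormone signalling, read 2.56, 3.79, 3.77, 2.31 and -0.66 in liver and 2.20, 2.00, 1.29, 2.14 and 2.57 in forestomach. It was low in the liver of mouse 5, the groups overlapped and it was not called (adjusted p = 0.716), but was called higher in liver without liver mouse 5 (1.07, adjusted p = 0.0271).

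In forestomach the most variable genes were Clps, Tspan8, Mal, Krt19 and Elmod1. Colipase (Clps), a cofactor of pancreatic lipase, read 0.60, 8.75, 8.88, 3.13 and 1.79 in forestomach and 0.28, -0.055, 0.34, 0.012 and 0.38 in liver, with mice 2 and 3 highest. Its difference of -4.44 ± 1.48 became -1.65 without those mice (adjusted p = 0.0213 and 0.0048). Elmod1 had the opposite order, with 5.51, 1.51, 1.23, 6.55 and 7.78 in forestomach, mice 2 and 3 lowest, and -0.12, 0.12, 0.17, 0.15 and -0.075 in liver. It was not above background in any liver and at least 9.83-fold higher in forestomach (adjusted p = 0.00481, or 4e-08 without those mice).

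The Cy3 channel held the same reference RNA on every array, and still differed between the slides of the tissues. Of 25219 probes, 740 (2.93%) were called different in Cy3, 436 higher on the liver arrays and 304 higher on the forestomach arrays, with a median absolute difference of 0.116 over all probes against 0.595 for the ratio. Of the 740, 649 were also called in the ratio, 574 in the same direction. The share called in Cy3 rose with the Cy5 signal of the brighter tissue, from 0.582% of 9107 probes with a log2 Cy5 signal up to 8 to 30% of 447 probes over 16. Albumin had raw Cy3 signals of 1911.5 to 4817 on liver arrays and 34 to 102 on forestomach arrays, beside raw Cy5 signals of 240783 to 417254 and 85 to 492. Krt5 had raw Cy3 signals of 43.5 to 58.5 on liver arrays and 3950 to 17531 on forestomach arrays. Gapdh, bright in both tissues, had raw Cy3 signals of 165457 to 200057 and 165829 to 321873.

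Gene lists differed in how many members were called in Cy3. Of 17 plasma carrier genes, 15 were called in Cy3, and the median difference of the 17 was 9.48 in Cy5 alone and 6.52 in the ratio. Of 28 genes of the upper squamous layers, 22 were, with a median of the 28 of -7.08 in Cy5 alone and -5.99 in the ratio, whereas none of the cell cycle, extracellular matrix, Hox and repair genes tested was. Over all probes, 11596 probes were called in the ratio and not in Cy3, 5568 higher in liver and 6028 higher in forestomach. The cause of the Cy3 differences was not tested.

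**Figure D5:**
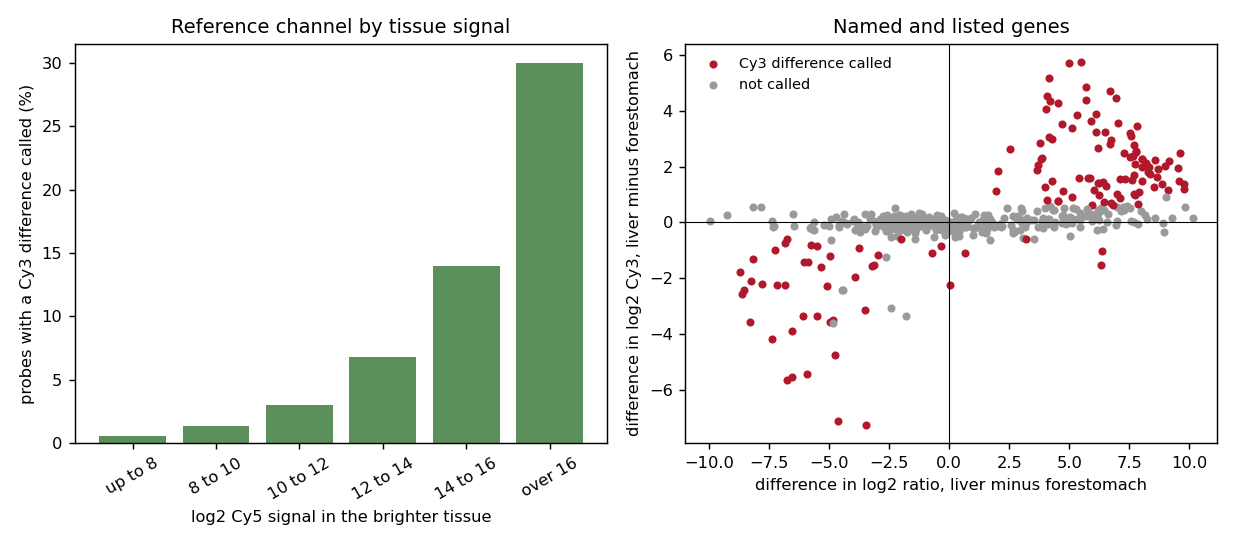
Left, the share of probes called different in the Cy3 reference channel between liver and forestomach arrays (vertical axis, percent) by the log2 Cy5 signal of the brighter tissue (horizontal axis); it is 0.582% in the dimmest class and 30% in the brightest. Right, the difference in log2 Cy3 (vertical axis) against the difference in log2 ratio (horizontal axis) for named and listed genes, both liver minus forestomach, with genes called in Cy3 in red; most red points share the sign of the ratio difference.

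The same comparison was made in the mice given benzo(ghi)perylene daily at 6.25 (D1), 12.5 (D2) or 25 (D3) mg per kg body weight, 5 other mice per dose. At these doses 11790 (46.8%), 11867 (47.1%) and 12716 (50.4%) of the same probes were called. Of the 12245 vehicle calls, 10470 (85.5%), 10694 (87.3%) and 11042 (90.2%) were called in the same direction and 0 in the opposite one. All 4 comparisons called 9491 of them (77.5%), 4426 higher in liver and 5065 higher in forestomach. Of the 12876 calls made without forestomach mice 2 and 3, 79.7%, 83.1% and 89.1% were called in the same direction at D1, D2 and D3.

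Leading genes kept their direction in these other animals. Fmo5, at 7.39 in the vehicle mice, differed by 6.00, 6.11 and 7.15 at D1, D2 and D3, Cyp4v3, at 6.16 in the vehicle mice, by 4.83, 5.19 and 6.34, Actg2 by -9.78, -10.50 and -10.20, and Sbsn by -7.81, -8.13 and -8.21. Ahr was higher in liver at each dose (0.95, 1.09 and 1.58) and Mki67 higher in forestomach (-3.05, -3.23 and -3.02). Krt18 differed by 0.51, 1.68 and 3.30 and was called at D3 alone (adjusted p = 0.666, 0.21 and 0.000841). The glandular stomach gene Gkn2 differed by -7.82, -6.58 and -4.53 at the same doses, Clps by -7.75, -6.04 and -4.35, and Krt19 by -6.92, -5.64 and -4.11. The excess of these genes in forestomach was smallest at D3, where that of Krt18 in liver was largest. Neither the differences between doses nor the part of glandular tissue in the Krt18 values was tested. These mice had received the compound, so a value at D1 to D3 is not a repeat of the vehicle condition.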

How the data were processed

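RNA of 5 D0 livers and 5 D0 forestomachs was measured on two-colour arrays of 62976 spots (3671 control spots left out). Per the file headers, the deposited scanner files, which give the median intensity of each channel of a spot, come from Feature Extraction (version 10.7.3.1). The deposited log2 ratios, which the authors had LOWESS normalized on median signals without background subtraction, correlated at 0.992 to 0.999 with those computed here and served as an alternative. Median signals were normalized within arrays by loess (limma 3.58.1, R 4.3.3, the data.table package, version 1.17.8). Outlier spots were set missing and spots averaged over 55681 probes, which left 0.0358% of probe values missing. Of the probes, 26413 (47.4%) had a symbol through their RefSeq accession (GRCm38.p6, names only, with header build mm9). No value was saturated.

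The 25219 probes whose Cy5 signal was well above background in 3 or more of the 5 samples of either tissue entered a limma fit of tissue without mouse or slide term, with Benjamini-Hochberg adjustment over all probes and two-sided tests. Calls needed an adjusted p of 0.05 or less and at least 1.5-fold. The brightest probe stood for a gene. With 5 arrays per tissue, the precision of a mean is limited by their number. Self-tests ran on simulated data.

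Genes named were the 10 with the largest difference in each direction on probes above background on all 10 arrays, the 5 largest bounds, up to 4 per role list (both extremes, nearest 0, not tested or bounded), the CYP1 genes, Ahr, Ahrr, Nqo1, Ephx1, isozyme pairs and the 5 largest SDs per tissue. Some genes picked by this rule are not reported here, and further genes were chosen after their values were seen. Members and lists were chosen with earlier results of these data known. Same-numbered samples came from 1 animal per the labels. Their deviations from the group means correlated between tissues at 0.113, 0.132, -0.103, 0.105 and 0.0207 for mice 1 to 5. With the forestomach of another animal, each liver reached up to 0.0515, 0.19, 0.0996, 0.0975 and 0.0178, which was higher for mice 2 and 3. Alternatives changed background correction, signal, normalization, filter, block, samples and test.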

Additional observations from a re-analysis of the deposited data

Results flagged for a closer look

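Among 150 groups of 5 samples examined (72 of single genes and 78 of list means), 9 held a sample that stood far from the other 4 by Dixon's test, where chance gives about 1 in 20. In forestomach, Rbp4 was low in mouse 3 at a log2 ratio of 0.182, and Ada was low in mouse 2 at 6.09. In liver, Grhl3 was higher in mouse 3 at 0.262, near the level of background, and Mki67 was higher in mouse 2 at -4.96. The mean of the fat cell markers was high in the forestomach of mouse 5 at 5.31. The liver of mouse 2 stood apart in 3 list means: hepatic hormones and growth factors at 3.26, where Igfbp1 was also lowest, B cell markers at -1.64 and desmosome genes at 0.663. The mean of the liver sinusoidal endothelium markers was low in the forestomach of mouse 3 at 0.0358.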

How the results depend on the processing

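Counts of calls moved by over 1.5 times under 2 settings. Median centring in place of loess gave 8040 calls in all and 2198 higher in forestomach, and of the vehicle calls 6645 and 7057 recurred at D2 and D3 and 6009 at all doses. Requiring all 10 arrays above background, which tests fewer probes, gave 5718 calls, 2333 higher in liver and 3385 higher in forestomach, of which 4863, 5037 and 5210 recurred at D1, D2 and D3 and 4433 at all doses. The cause of the shift with median centring was not tested. Under normexp, processed signals, deposited ratios, Cy5 alone, no filter, a variance trend, all 60 arrays and residual shuffling, calls higher in liver numbered from 5662 to 8629 and higher in forestomach from 5896 to 6498. Leaving out 1 sample in turn gave 11836 to 12516 calls, 5748 to 6166 higher in liver and 6050 to 6413 higher in forestomach, and 697 to 830 calls in the Cy3 reference. With mouse as a replicate block, the pairing by animal, 12324 probes were called (5982 and 6342), and Krt18, Angptl4, Igfbp2, Oasl1 and Rspo1 gained a call among the genes named. With slide as a random block (correlation 0.287) 6083 and 6496 were called. Leaving out forestomach mice 2 and 3 was chosen after seeing the data.

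Of 204 named and tested genes under 23 settings, 4399 of 4581 values kept their direction and their side of the threshold, and 6 changed sign with a call on either side. These were F10 (1.42 with processed signals, 0.766 with deposited ratios), Slc10a1 (1.54 and 0.725), Hopx (-2.22 on Cy5 alone) and Trp63 (-0.34 on Cy5 alone). Median centring ended 23 calls, among them Pcna, Birc5, Rrm2, Pkm, Aldoa, Hk2, Slc2a1, Col1a1, Nfe2l2, Tiparp, Lig1, Pfkl, Gsta4 and Rplp0.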
